A study of Homo sapiens with 8 samples.

Results

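The 35 genes described here encode the machinery with which the endoplasmic reticulum folds secreted and membrane proteins, discards those that fail, and signals when folding falls behind. They were chosen by name: chaperones and folding enzymes (15 genes), degradation factors (4), the stress sensors with the transcription factor XBP1 (4), genes of the ATF4-type stress response (8), and genes of translocation, transport and calcium binding (4). Of the 35, 34 had a probe set that names a single gene, out of 18417 such genes on the array. PDIA3 was represented only by a probe set shared with other genes and has no value here. P4HB and ATF4 each had 2 probe sets, and the brighter is given unless stated.

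RNA came from T47D, an established luminal breast cancer cell line that carries the estrogen receptor, and was read on Affymetrix Human Gene 1.0 ST arrays. There were 4 groups of 2 arrays, and the replicates were independent culture experiments per the labels. All cells were held in charcoal-treated, steroid-deprived medium for 2 days and reverse-transfected with 200 nM siRNA, either a scrambled control siRNA or a mix of siRNAs against 17β-HSD1, the enzyme that makes estradiol from estrone. After 48 h the medium was changed to one with 1 nM estradiol (E2) or ethanol vehicle for 2 more days. Each siRNA was thus combined with each medium. Every group was transfected and deprived of steroids, there was no untransfected group, and the siRNAs against 17β-HSD1 were used only as a mix.

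As background, proteins enter the endoplasmic reticulum through the Sec61 channel and are folded there by chaperones such as BiP (HSPA5), by calcium-dependent lectin chaperones and by disulfide isomerases. When unfolded protein builds up, the sensors ATF6, IRE1 (ERN1) and PERK (EIF2AK3) respond: ATF6 is cut to release a transcription factor, IRE1 splices XBP1 mRNA, and PERK phosphorylates eIF2α and thereby raises ATF4. ATF4 is also raised by amino acid shortage and other stresses, and XBP1 is a known estrogen-induced gene in luminal breast cells. Splicing, cleavage and phosphorylation are not read by these values, which are total transcript signals.

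Values are log2 signals per probe set, so a difference of 1 is a doubling, and levels of different genes are not compared because each probe set has its own response. On these arrays HSD17B1, the targeted gene, read 9.35 and 8.66 with control siRNA and vehicle (replicates 1 and 2). With control siRNA and E2 it read 9.12 and 8.56, and with 17β-HSD1 siRNA it ran from 8.32 to 8.41. The replicate 2 control arrays thus lay nearer to the 17β-HSD1 siRNA arrays than those of replicate 1. The averaged change was -0.56 ± 0.16 (SE, 4 arrays against 4; limma adjusted p = 0.221). Array medians lay between 7.25 and 7.37, and replicate 1 of 17β-HSD1 siRNA with vehicle had the lowest mean correlation with the other arrays, 0.973 against 0.981 to 0.988. The 10 luminal markers, ESR1, GATA3 and FOXA1 among them, had means over the arrays of 8.68 to 13.4. Means were 6.30 to 7.81 for 5 basal, 4.96 to 8.86 for 7 fibroblast, 4.62 to 7.07 for 6 immune and 5.81 to 6.81 for 5 endothelial markers, without detection calls. The luminal and fibroblast ranges overlap, and these levels, given as a description, do not by themselves separate cell types. All 15 interferon-stimulated genes listed for context had positive changes with 17β-HSD1 siRNA (median 1.40, 7 called). All 15 cell cycle genes had negative ones (median -0.66, 8 called), with 0.445% of all genes called. Both lists were chosen with earlier results of these data known, so they are context and their shared direction is no separate result. With E2 all 15 cell cycle genes rose (median 0.98, 15 called), with 1.64% of all genes called. None of the interferon genes was called with E2 (median 0.32, 1 at an unadjusted p below 0.05). The part of these shifts in any value below was not tested.

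The promoters of some of these genes hold matches to elements through which the stress factors are known to act. A form of the endoplasmic reticulum stress element was found in 10 of the 33 members searched. The matches are shown because they describe which members share these letters, whatever their signals did. Only exact letters were searched, so variant or more distant elements would be missed. Sequences are RefSeq promoter windows of GRCh38.p14, from 250 bases before to 50 after each start, available for 33 of the 35 genes. The endoplasmic reticulum stress element (ERSE), CCAAT and CCACG with 9 bases of any kind between them on either strand, is bound by ATF6 together with NF-Y. It was found in 7 members, while 0.0769% of all 35116 windows hold it. Here and below, members are counted once per gene over all their windows, while the share is per window, so these are unlike units. In the stretches that follow, written 5′ to 3′ along the gene, capitals mark the fixed letters of the element.
HSPA5: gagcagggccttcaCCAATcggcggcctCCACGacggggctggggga
HSP90B1: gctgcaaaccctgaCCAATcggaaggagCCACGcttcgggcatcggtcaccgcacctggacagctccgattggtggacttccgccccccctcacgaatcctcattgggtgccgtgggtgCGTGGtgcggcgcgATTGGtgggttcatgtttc
CALR: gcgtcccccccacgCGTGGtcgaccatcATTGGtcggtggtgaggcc
PDIA6: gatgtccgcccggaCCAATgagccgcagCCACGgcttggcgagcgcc
CANX: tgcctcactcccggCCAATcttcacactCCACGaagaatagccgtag
CRELD2: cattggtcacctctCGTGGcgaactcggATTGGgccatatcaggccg
XBP1: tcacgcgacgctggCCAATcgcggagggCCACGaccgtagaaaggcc
These lie at HSPA5 chr9:125241377-125241423 (- strand), HSP90B1 chr12:103930202-103930353 (+ strand), CALR chr19:12938370-12938416 (+ strand), PDIA6 chr2:10812839-10812885 (- strand), CANX chr5:179698764-179698810 (+ strand), CRELD2 chr22:49918540-49918586 (+ strand) and XBP1 chr22:28800589-28800635 (- strand). HSP90B1 holds 2 copies, 1 on each strand, while CALR and CRELD2 hold theirs in the reverse direction. The element of XBP1 lies 34 to 52 bases before the start and that of CALR 207 to 225 bases, while the distance of the CANX element depends on which of its annotated starts is taken.

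The related ERSE-II, ATTGG and CCACG with 1 base of any kind between them on either strand, was found in 3 further members and in 0.0541% of all windows. HYOU1 holds 2 copies, and the first of them overlaps a UPRE (TGACGTGG, on either strand), which no other member carries and 0.729% of windows hold. Capitals again mark the fixed letters.
HYOU1: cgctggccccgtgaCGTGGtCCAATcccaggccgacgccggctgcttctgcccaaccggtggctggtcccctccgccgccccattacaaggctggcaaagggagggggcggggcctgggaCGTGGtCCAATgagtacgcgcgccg
SDF2L1: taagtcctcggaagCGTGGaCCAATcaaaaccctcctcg
HERPUD1: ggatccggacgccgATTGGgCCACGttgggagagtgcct
These lie at HYOU1 chr11:119057260-119057404 (- strand), SDF2L1 chr22:21642100-21642138 (+ strand) and HERPUD1 chr16:56932011-56932049 (+ strand). A match to the ATF4-type amino acid response element, taken as TGATGNAA on either strand, was present in 4 members, ASNS, CHAC1, ATF3 and HERPUD1, and in 3.62% of all windows. It is shown for the 3 of the ATF4-type group, with its fixed letters in capitals.
ASNS: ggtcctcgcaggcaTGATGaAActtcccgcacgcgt
CHAC1: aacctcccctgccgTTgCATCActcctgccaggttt
ATF3: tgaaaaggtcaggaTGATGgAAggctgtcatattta
These lie at ASNS chr7:97872455-97872490 (- strand), CHAC1 chr15:40953248-40953283 (+ strand) and ATF3 chr1:212565202-212565237 (+ strand). No member window matched the palindromic estrogen response element, GGTCA and TGACC with 3 bases of any kind between them, on these 300 bases, which 0.057% of windows hold. A match is a description of the letters, not of binding.

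Across the 7 comparisons that the 4 groups allow, no member changed by limma at a Benjamini-Hochberg adjusted p below 0.05 over all 21214 probe sets tested. The comparisons were the effect of 17β-HSD1 siRNA averaged over both media, the effect of E2 averaged over both siRNAs, the same effects within each medium or siRNA, and their interaction. In the averaged 17β-HSD1 siRNA comparison 0 of 34 members were called, with 0.445% of all genes called. At an unadjusted p below 0.05 there were 6 of 34 (17.6%), against 9.17% of all genes. In the averaged E2 comparison 0 of 34 were called, with 1.64% of all genes called, and 4 of 34 (11.8%) had an unadjusted p below 0.05, against 8.9%. The intervals are per gene and unadjusted, and bound changes in measured signal, not in transcript amount. CHAC1 (7.29 to 7.69) and SESN2 (7.38 to 7.72), for example, ran close to the array medians of 7.25 to 7.37. Without detection calls, a transcript change could have been missed for such members. The 95% interval of the change lay within -1 to 1 for all 34 members in both averaged comparisons, and within -0.5 to 0.5 for 26 of 34 under 17β-HSD1 siRNA and 28 of 34 under E2. Members varied little between arrays: MANF ranged over 0.12 across the 8 arrays, HYOU1 over 0.21 and CANX over 0.24, while the widest ranges were 1.47 for HERPUD1, 1.07 for ASNS and 0.99 for CALR.

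**Figure D1:**
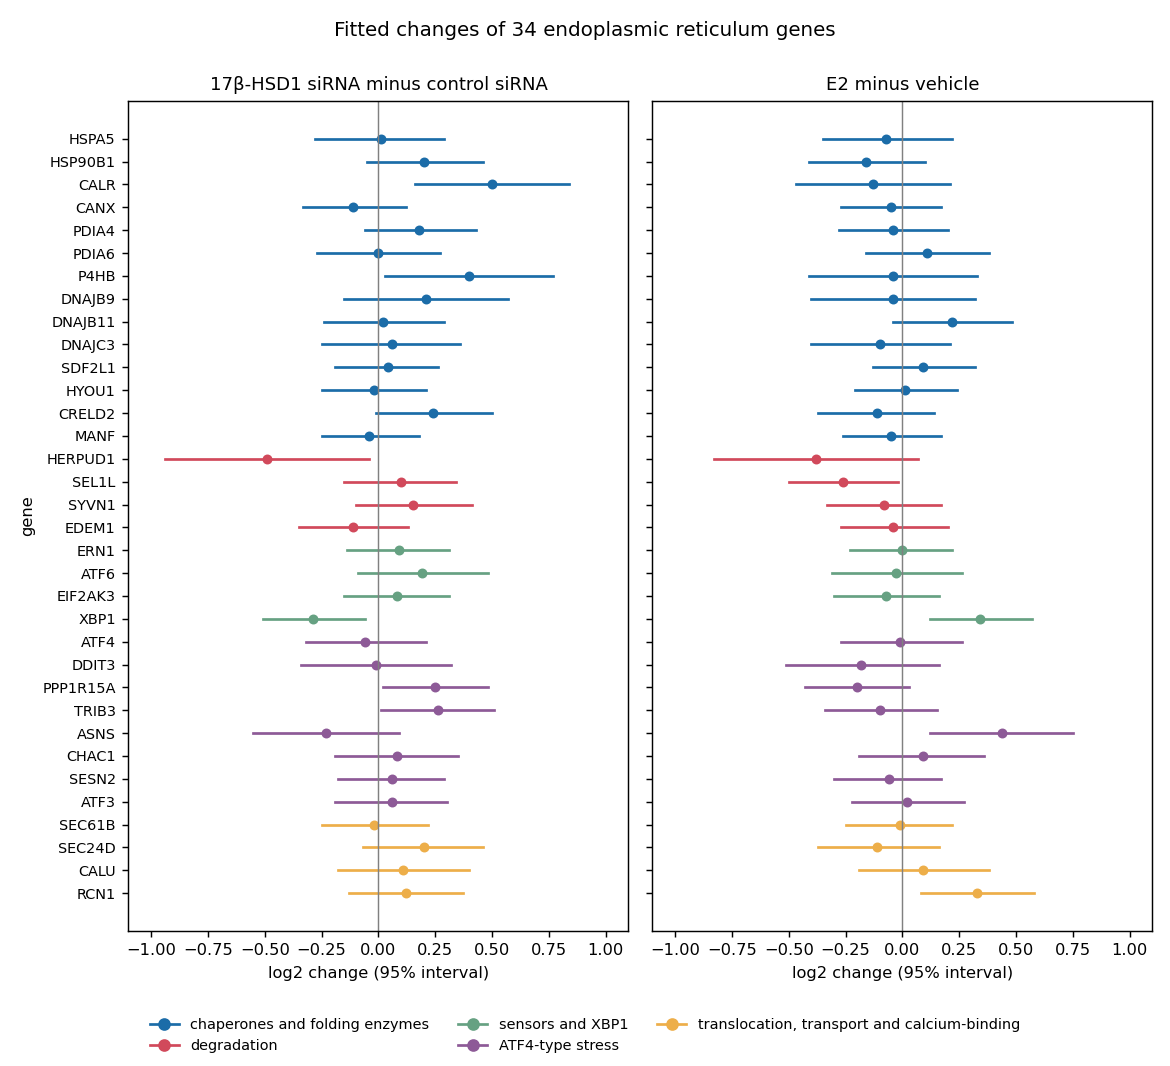
Log2 change of each of the 34 measured genes (rows, coloured by gene group) with its 95% interval from limma, for 17β-HSD1 siRNA minus control siRNA averaged over both media (left) and E2 minus vehicle averaged over both siRNAs (right), 4 arrays against 4. All points lie between -0.49 and 0.50, with HERPUD1 lowest and CALR highest under the siRNA, and HERPUD1 lowest and ASNS highest under E2.

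Among the chaperones, HSPA5, which encodes BiP, the main chaperone of the lumen and the usual marker of endoplasmic reticulum stress, ranged over 0.46 across the 8 arrays. Its signal was 11.68 and 11.80 with control siRNA and vehicle, 11.51 and 11.96 with control siRNA and E2, 11.64 and 11.98 with 17β-HSD1 siRNA and vehicle, and 11.63 and 11.73 with 17β-HSD1 siRNA and E2. The groups overlapped throughout. The averaged change was 0.01 ± 0.13 with 17β-HSD1 siRNA (95% interval -0.28 to 0.29) and -0.07 ± 0.13 with E2 (-0.35 to 0.22). HSP90B1, the lumenal HSP90 (GRP94), stood at 0.20 ± 0.12 and -0.16 ± 0.12.

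CALR, the calcium-binding lectin chaperone calreticulin, had the highest change of the group with 17β-HSD1 siRNA, and it did not pass. Its signal was 11.19 and 11.71 with control siRNA and vehicle and 11.03 and 11.65 with control siRNA and E2. The vehicle arrays with 17β-HSD1 siRNA read 11.93 and 12.02, and their E2 counterparts 11.84 and 11.81. All 4 arrays with 17β-HSD1 siRNA were thus above all 4 with control siRNA, by 0.50 ± 0.16 (1.42-fold; adjusted p = 0.253). With the replicate number added to the fit as a block this was 0.50 ± 0.13 (adjusted p = 0.0958), still not called. The control arrays were not alike: replicate 1 was the lower in both media, and the averaged difference was 0.77 within replicate 1 and 0.23 within replicate 2. E2 gave -0.13 ± 0.16.

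P4HB, the disulfide isomerase PDI, followed the same order of arrays. Its signal was 11.97 and 12.57, then 11.87 and 12.55, with control siRNA in vehicle and E2, and 12.60 and 12.70, then 12.66 and 12.61, with 17β-HSD1 siRNA. The 4 arrays with 17β-HSD1 siRNA again lay above the 4 others, but the replicate 2 control arrays were nearly level with them. The change was 0.40 ± 0.17 (adjusted p = 0.464), 0.71 within replicate 1 and 0.09 within replicate 2, and it was 0.25 without control siRNA, vehicle replicate 1 and 0.23 without control siRNA, E2 replicate 1. With the replicate block the change was 0.40 ± 0.13 (adjusted p = 0.237). The other probe set of P4HB gave 0.35 ± 0.16 without the block. CALR and P4HB were the only 2 of 34 members whose arrays did not overlap upward in this comparison, with 2.12% of all genes doing so, and no member did so downward, with 2.17% of all genes.

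The other folding factors had smaller values. CRELD2, a secreted stress-induced factor, stood at 0.24 ± 0.12 with 17β-HSD1 siRNA, 0.45 within replicate 1 and 0.03 within replicate 2. DNAJB9, a co-chaperone of BiP, stood at 0.21 ± 0.16. Its 2 arrays for 17β-HSD1 siRNA with vehicle were 7.38 and 8.24, the widest gap among the chaperones, and the change was 0.43 without the first and under 0.01 in size without the second. The isomerases PDIA4 and PDIA6 stood at 0.18 ± 0.11 and under 0.01 in size, the membrane lectin chaperone calnexin (CANX) at -0.11 ± 0.10, and the BiP co-chaperones DNAJB11 and DNAJC3 at 0.02 ± 0.12 and 0.06 ± 0.14. HYOU1, a lumenal HSP70-type chaperone, stood at -0.02 ± 0.10, SDF2L1 at 0.04 ± 0.10 and MANF, a secreted lumenal factor, at -0.04 ± 0.10. Over the 14 measured chaperones the median was 0.05 with 17β-HSD1 siRNA, beside 0.01 for all genes, and 10 of 14 values were positive. With E2 the median was -0.04, beside -0.02 for all genes, and every 95% interval lay within -0.5 to 0.5. The highest E2 change was that of DNAJB11, 0.22 ± 0.12 (adjusted p = 0.72), or 0.12 without 17β-HSD1 siRNA, vehicle replicate 1.

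**Figure D2:**
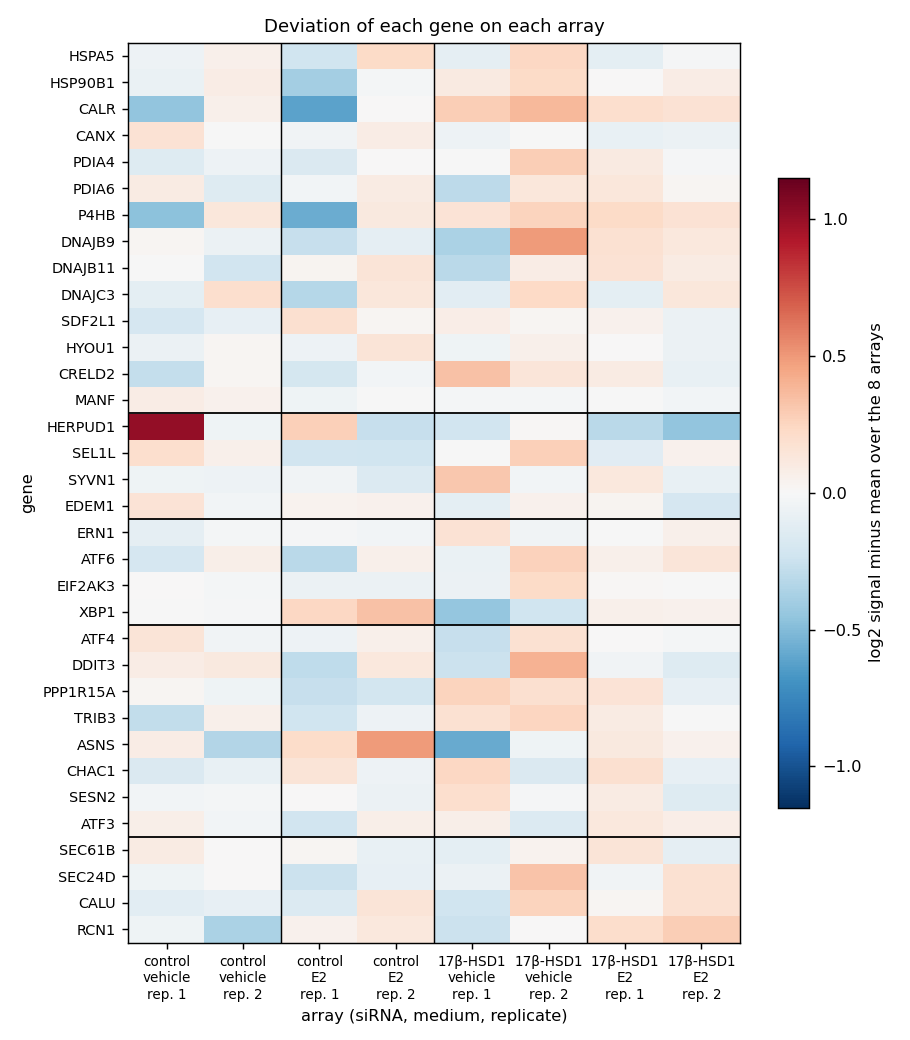
Log2 signal of each gene (rows) on each array (columns) minus that gene's mean over the 8 arrays, with horizontal lines between the gene groups and vertical lines between the groups of arrays. HERPUD1 in control siRNA, vehicle replicate 1 is the darkest cell, and CALR and P4HB are lowest in replicate 1 of both control siRNA groups.

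The degradation factors, which pull misfolded proteins back to the cytosol for the proteasome, included HERPUD1, which had the lowest member value in both averaged comparisons. HERPUD1, a membrane protein of the degradation complex whose promoter carries ERSE-II, had signals of 10.60 and 9.54 with control siRNA and vehicle and 9.86 and 9.32 with control siRNA and E2. Under 17β-HSD1 siRNA the vehicle arrays read 9.37 and 9.60, the E2 arrays 9.28 and 9.13. Control siRNA, vehicle replicate 1 stood above all others. Both 17β-HSD1 siRNA, E2 arrays were below those of control siRNA with E2 and of 17β-HSD1 siRNA with vehicle, while the arrays overlapped in the averaged comparisons. The change was -0.49 ± 0.21 with 17β-HSD1 siRNA (adjusted p = 0.473) and -0.38 ± 0.21 with E2 (adjusted p = 0.716). Without control siRNA, vehicle replicate 1 these were -0.22 and -0.12, and without replicate 2 of that group -0.75 and -0.65. The siRNA difference was -0.91 within replicate 1 and -0.07 within replicate 2, and the E2 difference was -0.42 and -0.35.

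SEL1L, the scaffold of the ubiquitin ligase complex, had signals of 10.82 and 10.69 with control siRNA and vehicle and 10.41 and 10.40 with E2. The arrays with 17β-HSD1 siRNA read 10.62 and 10.90 for vehicle, 10.50 and 10.68 for E2. The E2 arrays were the lower ones within control siRNA, and with 17β-HSD1 siRNA they overlapped with vehicle. The averaged E2 change was -0.26 ± 0.11 (adjusted p = 0.485), and the same in each replicate. SYVN1, the ligase itself (HRD1), stood at 0.15 ± 0.11 with 17β-HSD1 siRNA and -0.08 ± 0.11 with E2, and EDEM1, which directs mannose-trimmed glycoproteins to degradation, at -0.11 ± 0.11 and -0.04 ± 0.11. The median of the 4 was -0.01 with 17β-HSD1 siRNA and -0.17 with E2, and all 4 E2 values were negative, while 41.9% of all genes had a positive one.

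Of the sensors, ATF6 stood at 0.19 ± 0.13 with 17β-HSD1 siRNA (0.10 without control siRNA, E2 replicate 1, 0.29 without replicate 2 of that group and 0.11 without 17β-HSD1 siRNA, vehicle replicate 2) and at -0.03 ± 0.13 with E2. ERN1 stood at 0.09 ± 0.10 with the siRNA and EIF2AK3 at 0.08 ± 0.11 and -0.07 ± 0.11. The E2 value of ERN1 was below 0.01 in size. None of their intervals passed beyond 0.48 in either direction.

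XBP1, the transcription factor downstream of IRE1, had the lowest adjusted p of the members under E2 and small gaps between replicates. Its signal was 11.85 and 11.84 with control siRNA and vehicle, 12.09 and 12.19 with control siRNA and E2, 11.41 and 11.62 with 17β-HSD1 siRNA and vehicle, and 11.91 and 11.90 with 17β-HSD1 siRNA and E2. All 4 E2 arrays lay above all 4 vehicle arrays, and within each medium both 17β-HSD1 siRNA arrays lay below both control arrays. The E2 change was 0.34 ± 0.10 (1.27-fold; adjusted p = 0.185), being 0.30 ± 0.14 with control siRNA and 0.39 ± 0.14 with 17β-HSD1 siRNA. The siRNA change was -0.29 ± 0.10 (0.82-fold; adjusted p = 0.356), or -0.19 after a further quantile normalization, being -0.33 ± 0.14 in vehicle and -0.24 ± 0.14 in E2. Neither passed the threshold. XBP1 and RCN1 were the 2 of 34 members whose E2 arrays did not overlap upward, with 2.99% of all genes doing so, and no member did so downward, with 2.08% of all genes.

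**Figure D3:**
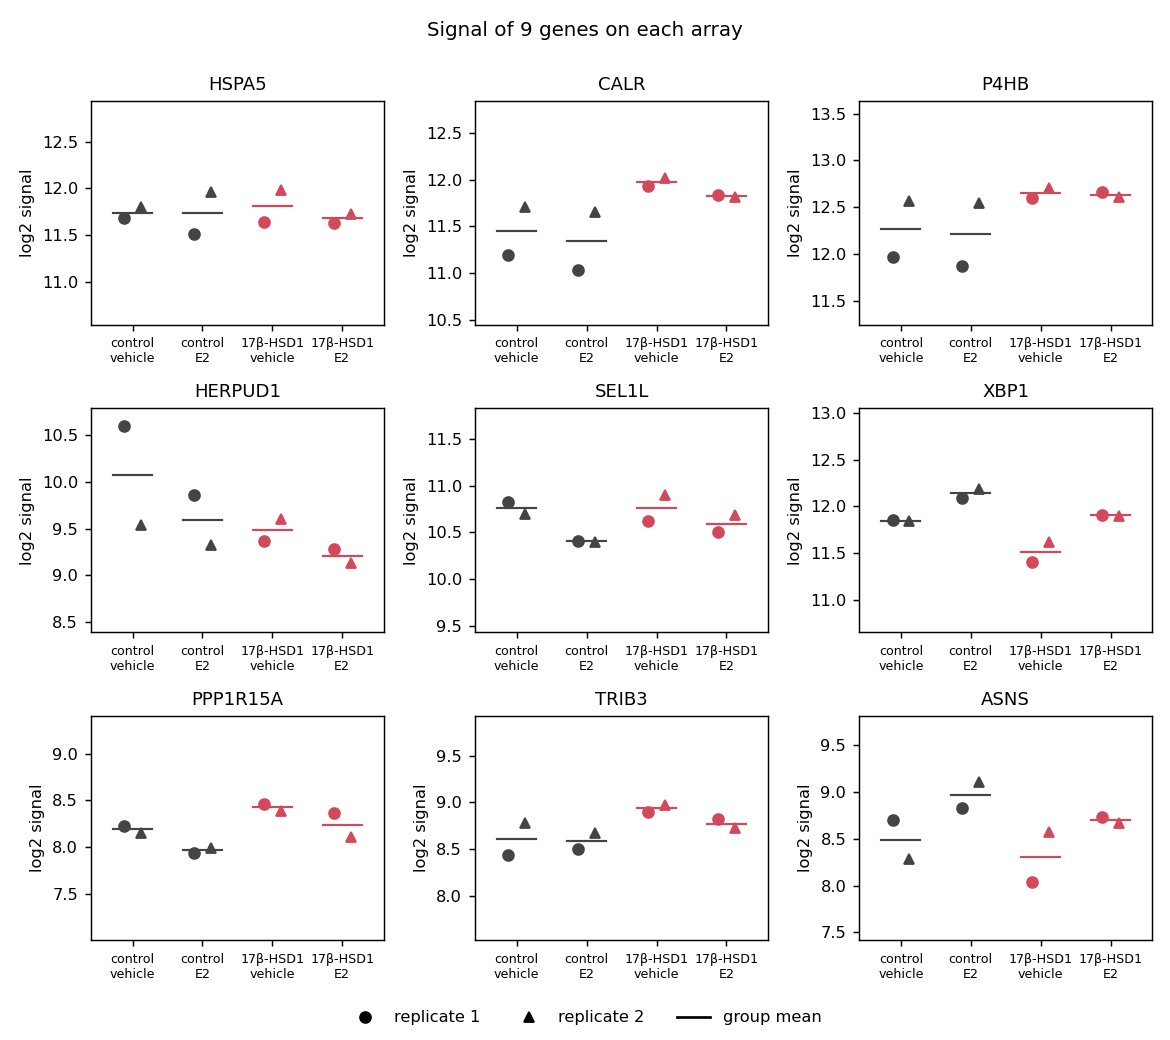
Log2 signal of 9 members on each array by group (circles replicate 1, triangles replicate 2, bars the group mean of 2 arrays; grey control siRNA, red 17β-HSD1 siRNA), each panel spanning the same height. CALR and P4HB are lowest in the replicate 1 control arrays, XBP1 is lower in vehicle than in E2 with either siRNA, and the high HERPUD1 point is control siRNA, vehicle replicate 1 at 10.60.

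In the ATF4-type group ATF4, DDIT3, ATF3, CHAC1 and SESN2 had siRNA changes of at most 0.08 in size. They are given first for that reason. ATF4 itself had signals of 10.35 and 10.16 with control siRNA and vehicle, 10.14 and 10.26 with control siRNA and E2, 9.93 and 10.37 with 17β-HSD1 siRNA and vehicle, and 10.20 and 10.18 with 17β-HSD1 siRNA and E2. The groups overlapped, with changes of -0.06 ± 0.12 for the siRNA and -0.01 ± 0.12 for E2, and its other probe set gave 0.01 ± 0.10 and -0.10 ± 0.10. DDIT3, which encodes the pro-apoptotic factor CHOP, stood at -0.01 ± 0.15 and -0.18 ± 0.15. On leaving out 1 array its E2 change ran from -0.34 to -0.01. ATF3 stood at 0.06 ± 0.11 and 0.02 ± 0.11, CHAC1, which degrades glutathione, at 0.08 ± 0.12 and 0.09 ± 0.12, and the stress-induced sestrin gene SESN2 at 0.06 ± 0.11 and -0.06 ± 0.11.

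PPP1R15A (GADD34), which returns eIF2α to its unphosphorylated state, had signals of 8.23 and 8.15 with control siRNA and vehicle and 7.94 and 7.99 with E2, then 8.46 and 8.39, and 8.36 and 8.11, with 17β-HSD1 siRNA. Within each medium both 17β-HSD1 siRNA arrays were the higher, by 0.25 ± 0.10 on average (adjusted p = 0.46), and E2 gave -0.20 ± 0.10 (adjusted p = 0.674). TRIB3, a pseudokinase that dampens ATF4 signalling, had 8.44 and 8.78, then 8.50 and 8.67, with control siRNA in vehicle and E2, and 8.90 and 8.97, then 8.82 and 8.72, with 17β-HSD1 siRNA. Its siRNA change was 0.26 ± 0.11 (adjusted p = 0.504), 0.40 within replicate 1 and 0.12 within replicate 2, and 0.17 without control siRNA, vehicle replicate 1.

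ASNS, the asparagine synthetase gene, had the highest E2 value of all members. Its signal was 8.70 and 8.28 with control siRNA and vehicle, 8.83 and 9.11 with control siRNA and E2, 8.04 and 8.57 with 17β-HSD1 siRNA and vehicle, and 8.73 and 8.67 with 17β-HSD1 siRNA and E2. Within each siRNA both E2 arrays were above both vehicle arrays, although control siRNA, vehicle replicate 1 overlapped with the 17β-HSD1 siRNA, E2 arrays. The E2 change was 0.44 ± 0.15 (1.35-fold; adjusted p = 0.272), 0.41 within replicate 1 and 0.46 within replicate 2, and the siRNA change was -0.23 ± 0.15. Over the 8 ATF4-type members the median was 0.06 with 17β-HSD1 siRNA and -0.04 with E2, beside 0.01 and -0.02 for all genes.

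In the last group, RCN1, a calcium-binding reticulocalbin of the lumen, had signals of 10.22 and 9.90 with control siRNA and vehicle and 10.32 and 10.39 with E2, then 10.02 and 10.27, and 10.47 and 10.55, with 17β-HSD1 siRNA. Its 4 E2 arrays were above the 4 vehicle arrays, by 0.33 ± 0.11 (1.26-fold; adjusted p = 0.304), with a siRNA change of 0.12 ± 0.11. Calumenin (CALU), of the same protein family, stood at 0.11 ± 0.13 with 17β-HSD1 siRNA and 0.09 ± 0.13 with E2. SEC61B, a subunit of the translocation channel, stood at -0.02 ± 0.11 and -0.01 ± 0.11, and SEC24D, a cargo-binding coat protein of vesicles leaving the reticulum, at 0.20 ± 0.12 and -0.11 ± 0.12.

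Within a single medium or siRNA, where 2 arrays face 2, no member was called either. In vehicle the siRNA changes ran from -0.59 ± 0.29 (HERPUD1) to 0.52 ± 0.22 (CALR), in E2 from -0.38 ± 0.29 to 0.48 ± 0.22 for the same genes, with 3 and 0 of 34 members at an unadjusted p below 0.05. In vehicle 10 members had arrays that did not overlap upward and 3 downward (11.4% and 12% of all genes), and in E2 12 and 5 (18.3% and 19.9%). No gene at all was called in either of these comparisons (0% of 18417), and 5.22% and 4.53% of genes had an unadjusted p below 0.05. E2 with control siRNA gave changes from -0.49 ± 0.29 (HERPUD1) to 0.48 ± 0.21 (ASNS), and E2 with 17β-HSD1 siRNA from -0.28 ± 0.29 (HERPUD1) to 0.39 ± 0.14 (XBP1). There, 0.0869% and 0.282% of all genes were called, and 2 of 34 members in each had an unadjusted p below 0.05, against 6.09% and 4.43% of genes. With control siRNA 6 members did not overlap upward and 6 downward (16.7% and 19% of all genes), and with 17β-HSD1 siRNA 5 and 7 (12.6% and 12.1%). The interaction, the difference between both E2 responses, had values from -0.30 (SDF2L1) to 0.25 (DNAJB9). It called 0 members and 0% of genes, with 0 members and 0.592% of genes at an unadjusted p below 0.05. Its intervals reached from -0.76 to 1.11, and only 2 of 34 lay within -0.5 to 0.5, so a differing E2 response of moderate size was not detectable for most members.

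Chaperones, degradation factors and ATF4-type genes were then set side by side through the mean deviation of their members from each gene's 8-array mean. For the 14 chaperones it was -0.11 and 0.00 with control siRNA and vehicle, -0.19 and 0.06 with control siRNA and E2, -0.03 and 0.18 with 17β-HSD1 siRNA and vehicle, and 0.06 and 0.03 with 17β-HSD1 siRNA and E2. The gaps between replicates were as wide as those between groups. For the 4 degradation genes it ran from -0.17 to 0.33, the highest being control siRNA, vehicle replicate 1, where HERPUD1 was high. For the 8 ATF4-type genes it stayed between -0.09 and 0.09. Members with opposite changes cancel in this mean. Their averaged E2 changes ran from -0.20 (PPP1R15A) to 0.44 (ASNS), and their siRNA changes from -0.23 (ASNS) to 0.26 (TRIB3). No difference between these 3 gene groups was tested, since genes are not replicates.

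**Figure D4:**
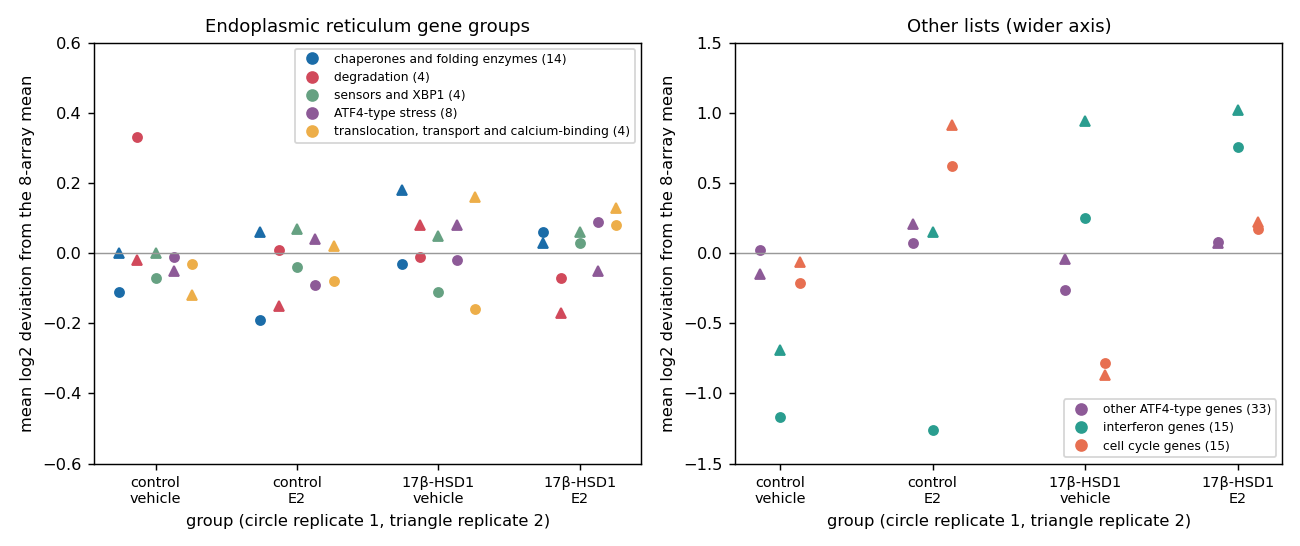
Mean over the genes of each list of the log2 deviation from the gene's 8-array mean, for each array (circles replicate 1, triangles replicate 2; number of genes in brackets). The 5 endoplasmic reticulum groups (left) stay between -0.19 and 0.33, while on the wider axis (right) interferon genes span -1.26 to 1.02, cell cycle genes -0.87 to 0.91 and the 33 other ATF4-type genes of a wider list -0.26 to 0.21.

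The 10 members with ERSE or ERSE-II did not share a direction. Their siRNA changes ran from -0.49 (HERPUD1) to 0.50 (CALR) with a median of 0.00, and 5 of 10 were positive. Their E2 changes ran from -0.38 (HERPUD1) to 0.34 (XBP1) with a median of -0.06. The 23 other members with a promoter window had medians of 0.08 and -0.04. Among all measured genes, 36 carried ERSE or ERSE-II, the 10 members included, with medians of 0.01 under the siRNA and -0.03 under E2. The 14203 genes whose windows lack them had 0.01 and -0.02. The medians hide a spread. Under the siRNA the 36 ran from -0.68 to 0.64, with 1 called (0.445% of all genes) and 9 at an unadjusted p below 0.05 (9.17%). Under E2 they ran from -0.38 to 0.85, with 1 called (1.64%) and 3 at an unadjusted p below 0.05 (8.9%). No difference from other genes was tested.

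Of a wider list of 139 pathway genes, 131 were measured. With 17β-HSD1 siRNA 1 of 131 was called, with 0.445% of all genes called: RCN2, a relative of RCN1 and CALU. RCN2 had signals of 10.80, 10.39, 10.44 and 10.35 with control siRNA and 8.40, 9.37, 9.11 and 9.28 with 17β-HSD1 siRNA, and fell by 1.45 ± 0.19 on the log2 scale (0.366-fold; adjusted p = 0.0104). All 4 arrays were below all controls, although the call was lost without either 17β-HSD1 siRNA, E2 array (adjusted p of 0.071 and 0.0601) and when unnamed probe sets also entered the test. Leaving out any 1 array, its change stayed between -1.69 and -1.21. The 27 measured other folding genes had a siRNA median of 0.03, the 21 other degradation genes -0.02, the 14 other sensors and factors below 0.01 in size, and the 36 other translocation and transport genes -0.08. Of the last, 5 of 36 (13.9%) had an unadjusted p below 0.05, all lower, against 9.17% of all genes. In 6 of the 36 the arrays did not overlap downward and in 1 upward (2.17% and 2.12% of all genes). The mean deviation of this list was lowest, -0.26, in 17β-HSD1 siRNA, vehicle replicate 1, and 0.07 in replicate 2 of that group. SSR1 and SSR3, subunits of the translocon-associated complex, had -0.44 ± 0.13 and -0.45 ± 0.16 (adjusted p of 0.228 and 0.35). Among the other factors, CREB3L2, a membrane-bound relative of ATF6, had 0.47 ± 0.13 (adjusted p = 0.204), and EIF2AK2, the double-stranded RNA-activated eIF2α kinase PKR, 0.42 ± 0.18 (adjusted p = 0.489). In degradation OS9, a lectin that recognises misfolded glycoproteins, had 0.37 ± 0.12 (adjusted p = 0.297). With E2 none of these 4 lists had a member called, and their medians lay between -0.03 and 0.03.

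With E2, 4 of the 33 other ATF4-type genes were called, 2 in each direction, with 1.64% of all genes called. A difference from the 8 ATF4-type members, of which 0 were called, was not tested. The amino acid transporter genes SLC7A5 and SLC7A1 rose by 0.68 ± 0.14 and 0.63 ± 0.12 (1.60- and 1.55-fold; adjusted p of 0.0345 and 0.0305). SLC7A5, whose product imports leucine and other large neutral amino acids, had signals of 10.96, 11.06, 11.38 and 11.30 in vehicle and 11.55, 12.10, 11.71 and 12.04 in E2, without overlap. The stress-induced genes DDIT4, an inhibitor of mTORC1 signalling, and NUPR1 fell by 0.65 ± 0.13 and 0.71 ± 0.15 (0.638- and 0.609-fold; adjusted p of 0.0347 and 0.0377). NUPR1 had 11.65, 11.84, 11.71 and 12.18 in vehicle and 10.46, 11.01, 11.50 and 11.54 in E2. For both genes listed, the control siRNA arrays come first. With control siRNA and then 17β-HSD1 siRNA, the E2 change was -1.01 and -0.42 for NUPR1 and -0.83 and -0.47 for DDIT4. It was 0.82 and 0.53 for SLC7A5 and 0.74 and 0.52 for SLC7A1. The interaction was not called for any of them. At an unadjusted p below 0.05 there were 17 of 33 (13 higher, 4 lower; 51.5%), against 8.9% of all genes, and the list's median was 0.18.

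Beside SLC7A5 and SLC7A1, the 13 higher ones, all named here after their values were seen, were the transporters SLC1A5 (0.43 ± 0.11) and SLC7A11 (0.77 ± 0.28) and the serine and one-carbon enzymes PSAT1 (0.40 ± 0.13), SHMT2 (0.32 ± 0.12), MTHFD2 (0.48 ± 0.11) and ALDH1L2 (0.44 ± 0.13). The rest were the tRNA synthetases GARS1, YARS1 and IARS1 (0.35 ± 0.13, 0.45 ± 0.13 and 0.34 ± 0.11), the death receptor gene TNFRSF10B (0.35 ± 0.10) and STC2. Beside DDIT4 and NUPR1, the 4 lower ones were JDP2 (-0.24 ± 0.10) and CTH (-0.35 ± 0.14). With the replicate block 7 of 131 pathway genes were called for E2: the 4 above with STC2, SLC7A11 and MTHFD2. The 1.64% of all genes given earlier belongs to the fit without the block. For this count and those that follow, the share of all genes called is not given here. The count was 0 with all probe sets tested, and 0 without control siRNA, vehicle replicate 2 or without either 17β-HSD1 siRNA, E2 array. It was 1 without control siRNA, E2 replicate 2 (NUPR1) or 17β-HSD1 siRNA, vehicle replicate 2 (DDIT4), and 2 without control siRNA, vehicle replicate 1 (SLC7A1 and STC2). STC2, a secreted glycoprotein gene, had 10.42 and 7.59 in the 2 control siRNA, vehicle arrays, a gap larger than its averaged E2 change of 1.78 ± 0.48.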

How the data were processed

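The 8 arrays, 2 per group, hold 33297 probe sets each. The deposited values were taken as log2 signals, read from their range (2.42 to 15.2). Which summarisation, background correction and normalization the authors applied is not given in the sources used here. Values were tested as deposited. Probe sets were named from the platform annotation (19460 with 1 symbol, 1754 with several, 12083 with none), with symbols updated by gene identifier from the RefSeq table of GRCh38.p14. The 21214 with a symbol were tested with limma 3.58.1 in R 4.3.3 (group means by lmFit, then eBayes; 4 residual degrees of freedom), with Benjamini-Hochberg adjustment and calls at 0.05. Averaged comparisons set 4 arrays against 4. Errors are the standard errors of the fit, and 95% intervals are per gene, not adjusted. The number of arrays limits the precision. The procedure was also run on simulated data with independent noise on each array. The outcome is not given here, and nothing above rests on it.

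The members and lists were chosen with earlier results of these data known. All members may be named. Of the other pathway genes the rule names called ones and up to 3 per list and averaged comparison by smallest p. The other ATF4-type genes with an unadjusted p below 0.05 under E2 are named beyond that rule. The labels report 2 culture experiments without saying that the replicate number marks them. The number was taken to do so for the within-replicate differences and for the replicate block. The main fits, which gave all values unless stated, had no replicate term. Same-numbered deviations had correlations of 0.44, 0.31, 0.31 and 0.42 in 4 pairs of groups. In the other 2 pairs, control siRNA with vehicle against each 17β-HSD1 siRNA group, they were 0.01 (E2) and -0.20 (vehicle). Alternatives tried were leaving out dim probe sets, testing all probe sets, further quantile normalization, a trended robust spread, the replicate block, means over probe sets, fits on the 4 arrays compared and leaving out each array.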

Additional observations from a re-analysis of the deposited data

How the results depend on the processing

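No member was called in any of 109 combinations of comparison and alternative. In the main fits, the siRNA comparisons within 1 medium and the interaction called 0% of all genes. E2 within control siRNA called 0.0869% and within 17β-HSD1 siRNA 0.282%. For these comparisons a count of 0 members says little about the members. The shares of all genes called under the alternatives are not given here. The lowest adjusted p was 0.059, for HERPUD1 under 17β-HSD1 siRNA without control siRNA, vehicle replicate 2. The replicate block changed no call of a member (lowest adjusted p = 0.0958, CALR), nor did a crossed block that swaps replicates 1 and 2 of control siRNA with vehicle, added after seeing the data (0 members called, and 1 and 5 other pathway genes for 17β-HSD1 siRNA and E2). With 1 array left in a group, that array was assumed to vary like the others.

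Of 1020 member values under an alternative, 4 moved by at least the SD between replicates, all after quantile normalization: CANX to -0.02, MANF to 0.03, XBP1 to -0.19 (17β-HSD1 siRNA) and MANF to -0.09 (E2). This count is no measure of stability. Leaving out 1 array cannot shift an averaged change by that SD, whatever the values. Changing the probe sets tested, the spread or the block leaves the change itself as it was. HERPUD1 went from -0.49 to -0.22 or -0.75 under 17β-HSD1 siRNA on leaving out 1 array, and was not counted. Leaving out 1 array, the siRNA median ran from -0.02 to 0.14 for chaperones, -0.06 to 0.03 for degradation and 0 to 0.11 for ATF4-type genes. The E2 median ran from -0.08 to 0.02, -0.21 to -0.10 and -0.07 to 0. Among the other pathway genes, whose alternatives were also added after seeing the data, the count called was 0 for 17β-HSD1 siRNA and 0 for E2 with all probe sets tested, and 7 for E2 with the replicate block. Leaving out 1 array it ran from 0 to 3 for 17β-HSD1 siRNA (3 without 17β-HSD1 siRNA, vehicle replicate 2: RCN2, SSR1 and SSR3) and from 0 to 4 for E2.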
